A study of Homo sapiens with 4 samples.

Results

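The DEAD-box and DEAH-box RNA helicases examined here were taken as every gene in the deposited tables whose symbol was DDX or DHX followed by a number and at most 1 letter. This rule gave 56 of 61498 genes, 40 with a DDX symbol and 16 with a DHX symbol. Poly(A) RNA was sequenced from K562, an established human erythroleukaemia cell line, and all 4 libraries came from that line. The 2 untreated libraries were from cells grown without any agent, and the 2 hemin libraries were from cells kept in 50 µM hemin, an iron porphyrin that drives these cells toward erythroid differentiation, for 108 h. The comparison asked which helicase genes changed their expression upon this treatment. No culture time was given for the untreated cells, so an effect of time in culture cannot be told apart from that of hemin. The labels number the replicates but do not say that they were separate cultures, so the p-values measure only the spread between these libraries, which may be technical.

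RNA helicases of these families use ATP to separate short RNA duplexes and to remove proteins from RNA. Both names come from the one-letter amino acid code of a conserved motif in the ATPase core, Asp-Glu-Ala-Asp in the DEAD-box proteins and Asp-Glu-Ala-His in the DEAH-box proteins. Members act in transcription, splicing, messenger RNA export, translation, decay and the building of ribosomes in the nucleolus, and many of them are switched on by a cofactor protein. Differentiating erythroid cells depend on these steps because they make globin in large amounts before the nucleus is lost.

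The expected counts, RSEM's estimates of the reads per gene, summed to between 7455447 and 8241534 per library, of which 12.8% to 13.6% were on mitochondrial genes. The labelled cell type was checked on marker genes. Erythroid markers were present in every library and their TPM (a level scaled for transcript length and set to the same total in each library) summed to 5610 and 5820 in the untreated and to 7144 and 6677 in the hemin libraries. Of 11 erythroid markers, 3 rose (HBE1, HBZ and TFRC) and ALAS2 fell. Megakaryocyte markers summed to between 3.87 and 7.3 TPM, monocyte and granulocyte markers to between 1.4 and 2.5 TPM and lymphoid markers to between 0.54 and 1.62 TPM, with GP9, PF4, PPBP, MPO, ELANE, CD3E and MS4A1 listed at 0 in every library. Epithelial and fibroblast markers, mostly KRT8, summed to 234.4 and 252.1 TPM in the untreated and to 188.6 and 181.9 TPM in the hemin libraries. KRT8 fell (log2 fold change -0.42, edgeR adjusted p = 0.000913), while EPCAM and COL1A2 did not pass an adjusted p of 0.05. The part of these markers in the results was not tested.

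As a group, the helicases were well expressed and took a larger share of the RNA after hemin. They held 0.601% and 0.602% of the counts in the untreated libraries and 0.661% and 0.666% in the hemin libraries. Their summed level was 3185 and 3167 TPM in untreated and 3528 and 3561 TPM in hemin-treated cells, so both hemin libraries were above both untreated libraries on either scale. In such bulk samples a change in the share of cells that express a gene and a change of RNA per cell cannot be told apart. The median untreated level of the 50 members that passed the filter on low counts was 38.7 TPM, whereas that of all genes tested was 15.3 TPM. In all, 44 members had a mean level of at least 10 TPM and 10 of at least 100 TPM.

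The highest levels belonged to DDX5, DDX21, DDX39B, DDX39A and DDX17, which together held 37.3% to 38.0% of the helicase TPM in each library. DDX5, an RNA helicase that also acts as a transcription coactivator, stood first with 339.4 and 318.5 TPM in the untreated and 370.2 and 388.2 TPM in the hemin libraries. DDX21, a nucleolar helicase that couples transcription of ribosomal RNA to its processing, was at 226.4 and 224.2 TPM and at 263.2 and 272.2 TPM. The means of DDX21, DDX39B and DDX39A, at 246.5, 241.4 and 234.3 TPM, differed by less than the spread of DDX39B between the hemin libraries, which were at 264.1 and 238.3 TPM. DDX17, the paralog of DDX5, had a mean of 186.9 TPM and its libraries overlapped between the conditions. At the other end, DDX58, DDX53 and the 6 members that did not pass the filter were all below 1 TPM on average.

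**Figure D1:**
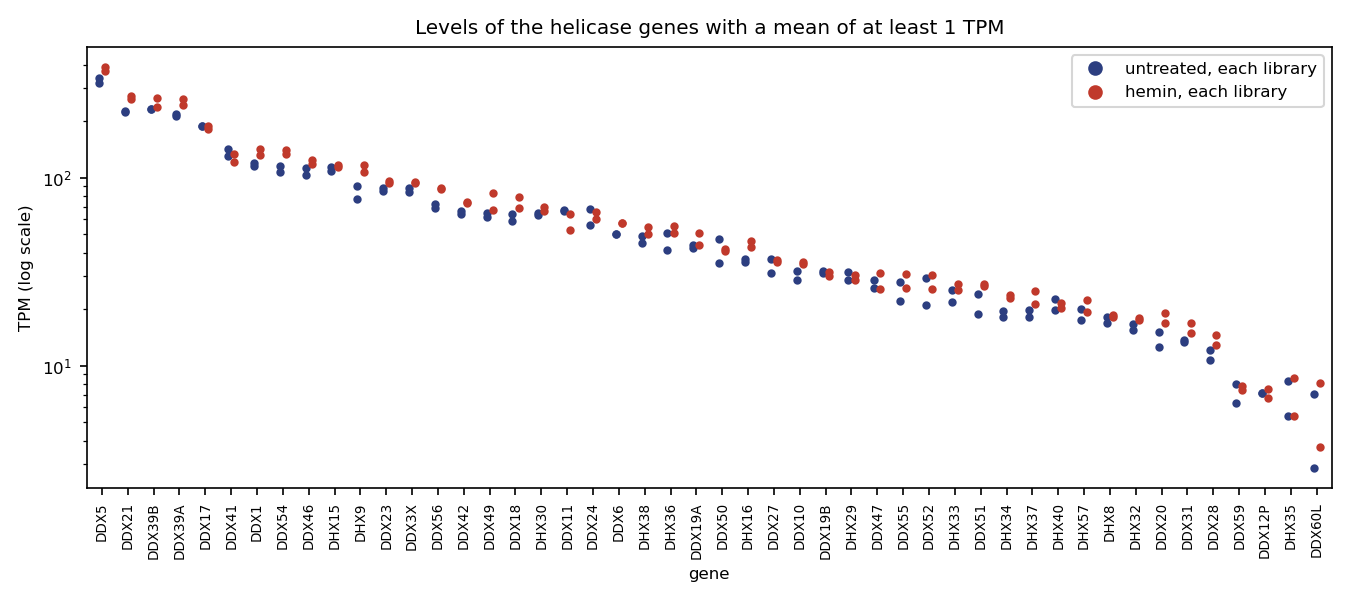
Levels in TPM, on a log scale, of the 48 helicase genes with a mean of at least 1 TPM, 1 point per library, in blue for untreated and in red for hemin-treated cells. DDX5 stands highest with a mean of 354.1 TPM, and DDX60L lowest with 5.42 TPM and the widest spread among replicates.

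Of the 50 helicases tested, 15 rose after hemin and none fell, by the quasi-likelihood test of edgeR at a Benjamini-Hochberg adjusted p under 0.05 over the 14458 genes tested. Of all genes tested, 7.00% rose and 7.14% fell. Genes with more reads are called more easily, and 45 of the 50 members had a mean count of at least 100, a level at which 10.7% of all genes rose and 8.82% fell. Beyond this floor, the shares of all genes were not matched to the members for depth. At an unadjusted p under 0.05, 28 members were higher and 0 were lower, and 14.8% and 14.6% of all genes tested were. DESeq2 called 13 members higher and 0 lower. The changes were small, with folds from 1.12 for DDX3X to 1.48 for DHX9. The log2 fold change was positive in 43 of the 50 members, which is 86.0% against 49.1% of all genes tested, and its median was 0.17 against -0.0048. With library size alone it was positive in 40 members, as DHX8, DDX50 and DDX12P fell below 0. Both hemin libraries lay above both untreated libraries in 33 members, including all 15 that rose, where 28.1% of all genes showed this order. The reverse order was seen for DDX60L alone, where 29.3% of all genes showed it.

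On simulated counts of the same size, with planted changes larger than those of the helicases, the false share of edgeR's calls was above the nominal threshold. The count of 15 changed with the library left out and with the test. Without untreated replicate 1 it was 8, and without any one of the other libraries it was between 12 and 17. With limma on log2(TPM + 1), 0 members passed the threshold and 11 were higher at an unadjusted p under 0.05, while that fit called only 14 genes higher and 33 lower in all. Scaling by library size alone left 12 members higher and split all calls into 729 higher and 1358 lower, in place of 1012 higher and 1033 lower. By symbol, 13 of 35 DDX and 2 of 15 DHX members rose, and the median log2 fold change was 0.17 in both. Of all genes tested 7.00% rose, and of those with a mean count of at least 100, 10.7% rose. The counts by symbol and by role rest on few genes and are read against these shares.

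**Figure D2:**
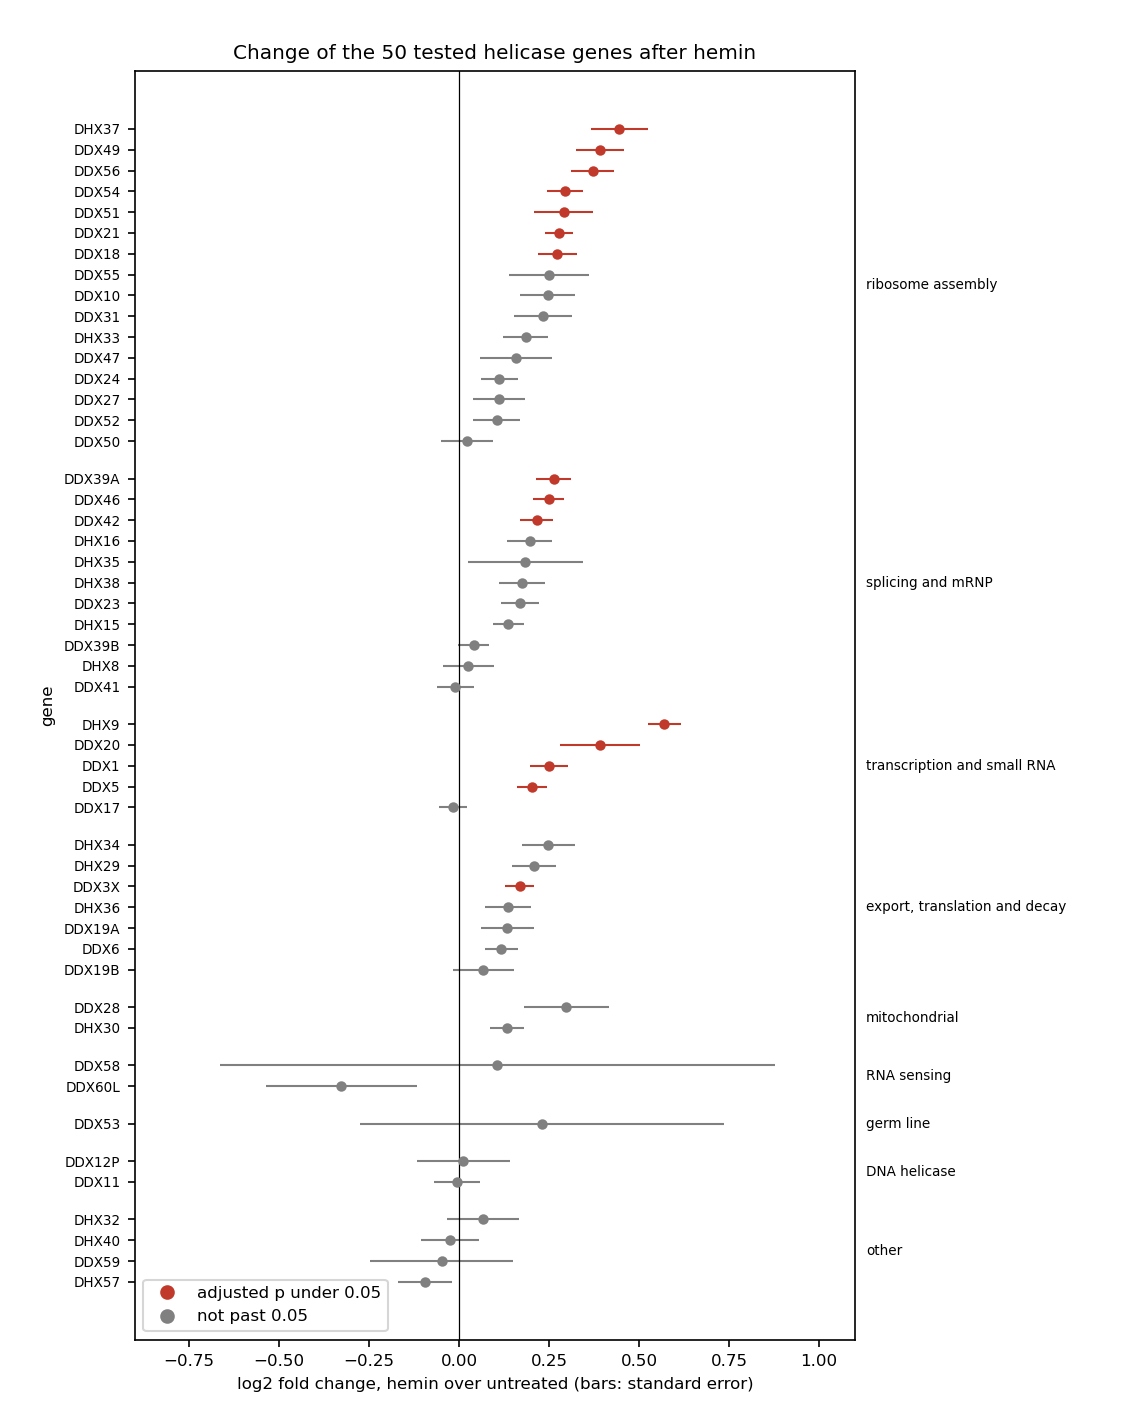
The log2 fold change of hemin over untreated cells (horizontal axis, bars are the standard error of the fit) for each of the 50 helicase genes tested, grouped by role, with the 15 genes past the adjusted p of 0.05 in red. All 16 genes of ribosome assembly lie above 0, as far as 0.45 for DHX37 (DDX50 is at -0.017 with library size alone), and DHX9 has the largest change at 0.57, while DDX58 and DDX53 have the widest bars.

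DHX9 showed the largest change of all members. This helicase, also called RNA helicase A, bridges RNA polymerase II and its coactivators and unwinds RNA-DNA hybrids. Its gene lies on the plus strand at chr1:182839347-182887982 of GRCh38. In CPM, the count relative to the TMM-scaled size of its library, it was read at 209.6 and 214 in the untreated and at 305 and 324 in the hemin libraries. Both hemin values were far above both untreated ones, and the log2 fold change was 0.57 ± 0.046 (SE) with an edgeR adjusted p of 0.000211. Its level was 76.97 and 89.96 TPM in the untreated and 107.6 and 117.1 TPM in the hemin libraries, again without overlap. Leaving out any one library kept it past the threshold, with adjusted p between 9.84e-08 and 0.00311.

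Of the other 4 helicases of transcription and small RNA pathways, 3 rose, with smaller changes, and their values follow for replicate 1 and replicate 2 of the untreated and then of the hemin libraries. DDX1, part of the ligase complex that joins the parts of spliced transfer RNA, went from 203 and 215 CPM to 237.5 and 259 CPM, a log2 fold change of 0.25 ± 0.054 (edgeR adjusted p = 0.0158). DDX5 went from 350.5 and 364 CPM to 416 and 407 CPM, a log2 fold change of 0.20 ± 0.041 (edgeR adjusted p = 0.0123). For DDX20, the helicase of the SMN complex that loads Sm proteins onto small nuclear RNA, the values were 25.8 and 31.9 CPM and 39.8 and 36.0 CPM, with a log2 fold change of 0.39 ± 0.11 (edgeR adjusted p = 0.0452). In each of these the conditions did not overlap, but the untreated libraries of DDX20 were farther apart from each other than the higher of them was from the nearest hemin library. DDX17, which shares most of its helicase core with DDX5 and works beside it in the DROSHA complex, had 716 and 707 CPM and 694 and 713 CPM. Its hemin libraries were within or below the range of the untreated ones, the log2 fold change was -0.016 ± 0.038 and the edgeR adjusted p was 0.825. The difference between DDX5 and DDX17 itself was not tested. Without untreated replicate 1 the edgeR adjusted p was 0.0731 for DDX5, 0.0969 for DDX1 and 0.242 for DDX20. Without hemin replicate 2 it was 0.0654 for DDX1, and without hemin replicate 1 it was 0.0964 for DDX20. DDX20 was also not past the threshold with library size alone (0.0605) or with DESeq2 (0.0999).

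Ribosome assembly was the largest role, with 16 helicases, all of them tested. Of these, 7 rose, none fell and 9 did not pass, and the log2 fold changes of all 16 were above 0, with 0.25 as their median. Under RLE factors and library size alone these signs held except that of DDX50, which was -0.017 with library size alone. The summed level of the 16 genes was 845.9 and 864.0 TPM in the untreated and 976.2 and 1012 TPM in the hemin libraries. DHX37, which frees the small subunit precursor from its guide RNA, was at 48.4 and 44.2 CPM in untreated cells and at 60.0 and 66.1 CPM after hemin. Its log2 fold change was 0.45 ± 0.08 with an edgeR adjusted p of 0.00726. RSEM's mean transcript length for DHX37 was 3503 and 3410 bases in the untreated and 3929 and 3626 bases in the hemin libraries. DDX49, a nucleolar helicase of small subunit processing, went from 58.3 and 53.8 CPM to 74.7 and 72.6 CPM, a log2 fold change of 0.39 ± 0.067 (edgeR adjusted p = 0.00588). DDX56, which acts on the large subunit precursor, was at 84.1 and 91.2 CPM and at 116 and 111 CPM, with a log2 fold change of 0.37 ± 0.059 (edgeR adjusted p = 0.00458). In CPM, for these 3 genes every hemin library exceeded every untreated one by more than the replicates differed within a condition. In TPM, which divides by transcript length, DDX49 was at 65.08 and 61.56 in the untreated and 67.32 and 83.09 in the hemin libraries. By limma on log2(TPM + 1) the log2 fold changes of DHX37, DDX49 and DDX56 were smaller, at 0.27, 0.24 and 0.30.

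DDX21 was the most abundant member of this role. It had 697 and 693 CPM in the untreated and 832 and 853 CPM in the hemin libraries, a log2 fold change of 0.28 ± 0.038 with an edgeR adjusted p of 0.00209. The conditions were separated by far more than the replicates. DDX54, a nucleolar helicase that also binds nuclear receptors, went from 105 and 103 CPM to 129.6 and 125 CPM (log2 fold change 0.29 ± 0.051, edgeR adjusted p = 0.00623). DDX18, another nucleolar helicase, went from 101 and 107 CPM to 123 and 128.5 CPM (log2 fold change 0.27 ± 0.054, edgeR adjusted p = 0.0114). DDX51, which processes the large subunit RNA, went from 41.4 and 44.2 CPM to 49.4 and 55.0 CPM (log2 fold change 0.29 ± 0.082, edgeR adjusted p = 0.0455). Each of them was higher in both hemin libraries than in either untreated one, with the smallest gap relative to the replicate spread in DDX51. Leaving out any one library kept DHX37, DDX49, DDX56, DDX54 and DDX21 past the threshold. Without untreated replicate 1 the adjusted p was 0.0732 for DDX18 and 0.202 for DDX51, and DDX51 was at 0.0922 without untreated replicate 2, at 0.233 without hemin replicate 2, at 0.0661 with library size alone and at 0.149 with DESeq2.

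DDX50, the paralog of DDX21, lies 9287 bases upstream of it on the plus strand of chromosome 10, at chr10:68901286-68946847 beside chr10:68956135-68985068. It was read at 56.6 and 62.5 CPM in the untreated and 59.3 and 61.5 CPM in the hemin libraries, so the conditions overlapped and the log2 fold change was 0.022 ± 0.072 (edgeR adjusted p = 0.879). Whether the neighbours differed in their change was not tested. DDX10, a helicase of small subunit assembly, had 63.2 and 71.0 CPM and 75.9 and 82.9 CPM with an edgeR adjusted p of 0.0587. The remaining members of this role, DDX24, DDX27, DDX31, DDX47, DDX52, DDX55 and DHX33, had log2 fold changes from 0.10 for DDX52 to 0.25 for DDX55. Among these, both hemin libraries were above both untreated ones in every gene but DDX47.

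**Figure D3:**
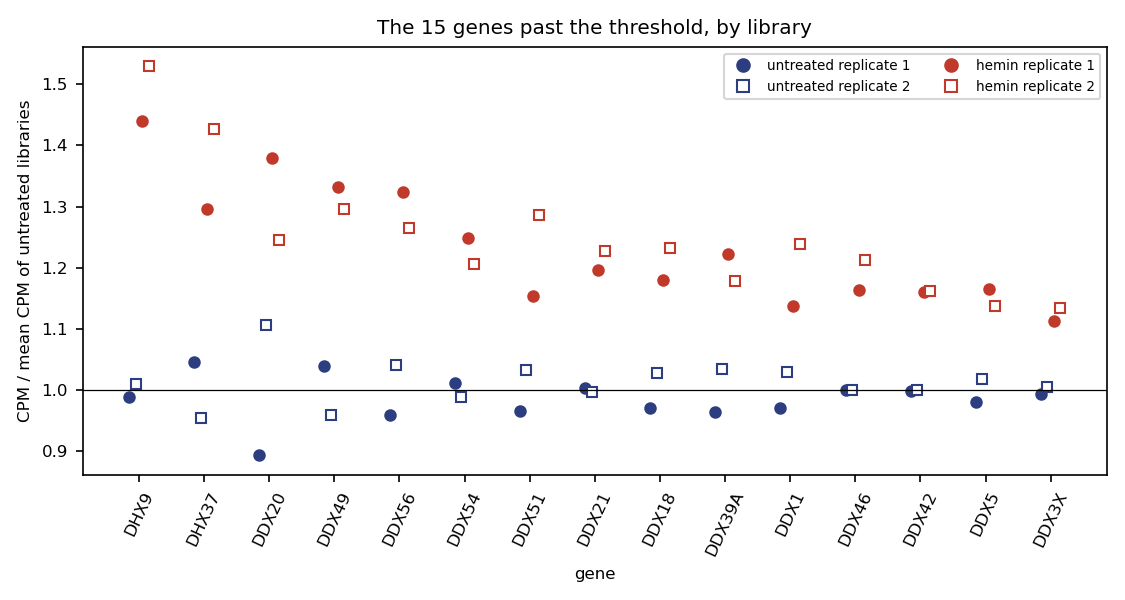
CPM of each library divided by the mean CPM of the untreated libraries (vertical axis) for the 15 helicase genes that rose, ordered by log2 fold change, with circles for replicate 1, squares for replicate 2, blue for untreated and red for hemin. Within each gene both red points are above both blue points, and the hemin values run from 1.11 for DDX3X to 1.53 for DHX9.

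In splicing and the early handling of messenger RNA, 3 of 11 helicases rose and 8 did not pass. DDX39A, which together with its paralog DDX39B loads export factors onto messenger RNA, went from 206 and 221 CPM to 261 and 251 CPM, a log2 fold change of 0.26 ± 0.049 (edgeR adjusted p = 0.0082). DDX46, which remodels the U2 particle as it binds the branch site, went from 240.4 and 240.1 CPM to 279.5 and 291 CPM, a log2 fold change of 0.25 ± 0.043 (edgeR adjusted p = 0.00599). DDX42, an associate of the same U2 particle, had 132 and 132 CPM and 153 and 153 CPM, a log2 fold change of 0.22 ± 0.046 (edgeR adjusted p = 0.0148). In all 3 the conditions were apart by more than the replicates, most cleanly in DDX42 and DDX46, whose untreated libraries were almost equal. DDX39A was at an adjusted p of 0.0559 without untreated replicate 1, and DDX42 was at 0.0648 without untreated replicate 1 and at 0.0589 without untreated replicate 2.

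Among the DDX and DHX members, the helicases that drive the later spliceosome steps did not pass the threshold. SNRNP200, a spliceosome helicase with another symbol, rose by a log2 fold change of 0.21 (edgeR adjusted p = 0.00932) and is described with the relatives. DDX23, which releases the U1 particle, had 143 and 137 CPM and 152 and 163 CPM (log2 fold change 0.17 ± 0.053, edgeR adjusted p = 0.0624). DHX16, which activates the assembled spliceosome, had 66.2 and 63.6 CPM and 72.8 and 75.9 CPM (log2 fold change 0.20 ± 0.062, edgeR adjusted p = 0.0656). For both genes the hemin libraries were above the untreated ones without overlap. DHX38, which remodels the spliceosome between its catalytic steps, DHX35 and DHX15, which takes the spliceosome apart, had log2 fold changes of 0.17, 0.18 and 0.14. DHX8, which releases the spliced messenger RNA, and DDX41 were near 0, at 0.026 and -0.0099.

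DDX39B, the paralog of DDX39A, did not pass the threshold. It lies on the minus strand at chr6:31530219-31542448 and had 329 and 340.2 CPM in the untreated and 354 and 335 CPM in the hemin libraries, which overlapped (log2 fold change 0.04 ± 0.044, edgeR adjusted p = 0.603). In TPM both hemin libraries, at 264.1 and 238.3 TPM, were above the untreated ones at 231.1 and 232.2 TPM, and RSEM's mean transcript length was shorter in both, at 1888 and 1959 bases against 2057 and 2075 bases. Whether DDX39A and DDX39B differed in their change was not tested. The files also list ATP6V1G2-DDX39B, a read-through transcript that joins the neighbouring gene to DDX39B. It received 0 and 1 counts in the untreated libraries and 18 and 46 counts in the hemin libraries (edgeR adjusted p = 0.00377). RSEM's posterior SD for the read-through was 84.5% of its count, a measure of how freely reads shared with DDX39B could be placed, and with posterior mean counts the adjusted p was 0.736. The sum of both genes, a quantity chosen after their values were seen, was 2605 and 2549 counts in the untreated and 2642 and 2748 counts in the hemin libraries.

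Of the 7 tested helicases of export, translation and decay, DDX3X alone rose. DDX3X, which helps ribosomes start on messenger RNA with structured leaders, went from 253 and 256 CPM to 283 and 289 CPM, a log2 fold change of 0.17 ± 0.041 (edgeR adjusted p = 0.0252). The replicates were close and the conditions apart, yet this was the smallest change among the 15 genes. The adjusted p was 0.105 without untreated replicate 1, 0.0734 without untreated replicate 2, 0.0993 without hemin replicate 2 and 0.0568 with library size alone. DHX29, a helicase of ribosome scanning, was just outside the threshold with 82.1 and 84.0 CPM and 91.8 and 99.7 CPM (log2 fold change 0.21 ± 0.061, edgeR adjusted p = 0.0503), and it passed in 5 of 13 alternative fits, with adjusted p from 0.015 without a filter to 0.0464 with RLE factors. In TPM, which divides by transcript length, the conditions overlapped, at 28.74 and 31.4 TPM in the untreated and 28.72 and 30.54 TPM in the hemin libraries. The mean transcript length that RSEM assigned to DHX29 was 4072 and 3749 bases in the untreated and 4439 and 4485 bases in the hemin libraries. DHX34, which promotes nonsense-mediated decay, had 57.3 and 50.9 CPM and 64.2 and 64.5 CPM (log2 fold change 0.25 ± 0.074, edgeR adjusted p = 0.0538). DDX6, which represses translation and promotes decapping, DHX36, which unwinds G-quadruplexes, and DDX19A and DDX19B, which release messenger RNA at the nuclear pore, had log2 fold changes of 0.12, 0.14, 0.13 and 0.068. DDX19A and DDX19B are near-identical neighbours, and RSEM's posterior SD was 4.66% and 5.38% of their counts.

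The smaller roles held no gene that passed the threshold. The mitochondrial helicases DDX28 and DHX30, which act on the mitochondrial ribosome, had log2 fold changes of 0.30 ± 0.12 and 0.13 ± 0.046 with edgeR adjusted p of 0.127 and 0.0872, and in both the hemin libraries were above the untreated ones. DDX11, a DNA helicase of sister chromatid cohesion, and its unprocessed pseudogene DDX12P were at -0.0047 and 0.012, with posterior SDs of 1.87% and 8.67% of the count. DHX32, DHX40, DDX59 and DHX57, whose roles are less settled, ranged from -0.095 for DHX57 to 0.067 for DHX32.

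Of the helicases grouped here as sensors of foreign RNA, DDX58, DDX60L, DHX58 and DDX60, none passed the threshold, and most were read thinly. DDX58, known as RIG-I, had 28 and 2 counts in the untreated and 21 and 11 counts in the hemin libraries, so the replicates differed more than the conditions (log2 fold change 0.11 ± 0.77, edgeR adjusted p = 0.948). DDX60L had 84 and 85 counts in the untreated and 51 and 85 counts in the hemin libraries (log2 fold change -0.33 ± 0.21, edgeR adjusted p = 0.348), and in TPM its libraries overlapped, at 7.07 and 2.87 TPM and at 3.69 and 8.05 TPM. DHX58, which regulates RIG-I, had 1 and 5 counts in the untreated libraries and 0 in both hemin libraries, and DDX60 had between 2 and 4 counts in every library. A count of 0 allows up to 3 counts, so a difference in DHX58 was not detectable at this depth. Of the germ line helicases, DDX53 passed the filter with 7 and 14 counts in the untreated and 9 and 16 counts in the hemin libraries, and DDX4, DDX25 and DDX43 had at most 1 count in any library. DDX3Y, the paralog of DDX3X, was the remaining member that did not pass.

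Promoter sequences were examined because 15 members rose together and none fell. RefSeq windows of 300 bases, from 250 before to 50 after each annotated start on GRCh38.p14, were found for 50 of the 56 members, and for 45 of the 50 tested. DDX12P, DDX18, DDX49, DDX52, DHX33 and DHX58 were not matched. A total of 15 motifs were searched on both strands, and the pair described here was picked after the shares had been seen. Of all genes tested, 14458, only the 10025 with a promoter entry enter the shares of tested genes. The members had a higher median level than all genes tested, and the shares were not matched for level. The letters CCGGAAG, the core bound by ETS factors, were in the windows of 23 of the 45 tested members, which is 51.1%. They were in 23.5% of the tested genes with an entry and in 12.2% of all genes in the table. They were in 7 of 13 members that rose and 16 of 32 that did not pass. The letters CACGTG, the E-box bound by MYC and USF among others, were in 9 of 45 members. Their shares were 12.7% of the tested genes with an entry and 8.77% of all genes. They were in 4 of 13 members that rose and 5 of 32 that did not pass, and these 2 motifs cannot overlap in the same letters. Counted per window, CCGGAAG was in 39.0% of 59 member windows and 10.3% of all windows, and CACGTG in 15.3% and 7.26%. These matches are descriptions of letters, and binding was not measured.

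One stretch of 30 bases is shown for each of the 8 members that rose and held either motif, so that the matches can be seen in place. There were 13 such stretches in these genes. Those not shown are ETS matches in DDX5, DDX21 and DHX37, which thus held both motifs, and further ETS matches in DDX56. The capitals mark the match on either strand, CACGTG for the first 4 genes and CCGGAAG or its reverse complement CTTCCGG for the others, and each line reads 5′ to 3′ along the strand of the gene.
DDX5: gggtggtacagcCACGTGacaacgccaggc
DDX21: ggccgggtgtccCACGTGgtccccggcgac
DDX54: ctcagcggaggtCACGTGgtcaccgcacct
DHX37: ggagttggtggtctgggaaccCACGTGggc
DDX1: aagaccaggggCCGGAAGcgcgcgccgcca
DDX46: aagagcggcagCTTCCGGtcggcttttctc
DDX56: ggccgccagcaCTTCCGGgaagtgacttcg
DDX42: aggtcaggcgcCTTCCGGgagccgtagccc
The E-box of DDX5 began 30 bases before the first of its annotated starts, at chr17:64506651-64506680 on the minus strand, and its other windows held no E-box. That of DDX21 began 31 bases before a second annotated start at chr10:68956604-68956633 on the plus strand. Those of DDX54 and DHX37, both on the minus strand, began 61 bases before the start at chr12:113185522-113185551 and 42 bases into the transcript at chr12:124989082-124989111. The ETS letters began 18 bases before the start of DDX1 at chr2:15591839-15591868 and 47 bases before that of DDX46 at chr5:134758721-134758750, both on the plus strand. They began 97 bases before the start of DDX56 at chr7:44573987-44574016 on the minus strand and 69 bases before that of DDX42 at chr17:63774090-63774119 on the plus strand. By GENCODE 44, the stretch of DDX46 overlapped no exon and that of DDX54 an exon of RITA1, while the other 6 overlapped an exon of some transcript of their own gene.

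Relatives and cofactors of the helicases were then compared from 8 lists of 88 tested genes, of which 17 rose and 5 fell, beside the 7.00% and 7.14% of all genes tested. The counts of single lists rest on few genes and are read against the same shares. Among 16 tested relatives that carry other symbols, 5 rose, 2 fell and the median log2 fold change was 0.12. EIF4A3, the DEAD-box helicase that anchors the exon junction complex, went from 68.2 and 67.7 CPM to 93.4 and 87.0 CPM (log2 fold change 0.41 ± 0.061, edgeR adjusted p = 0.0036). EIF4A1, the helicase of translation initiation, SNRNP200, which unwinds U4 from U6, AQR and ASCC3 rose by log2 fold changes of 0.18 to 0.25. IFIH1, the RNA sensor MDA5, fell from 12.5 and 14.0 CPM to 6.74 and 7.93 CPM (log2 fold change -0.85 ± 0.17, edgeR adjusted p = 0.0115). HELZ2, an interferon-induced helicase, fell from 21.4 and 21.0 CPM to 12.7 and 11.5 CPM (log2 fold change -0.81 ± 0.12, edgeR adjusted p = 0.0036). Both are outside the DDX and DHX symbols. Of the sensors within them, DDX60L was read at 10.6 and 11.4 CPM and at 6.88 and 10.5 CPM, about the depth of IFIH1, and did not pass the threshold, and whether its change differed from that of IFIH1 was not tested.

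Among the cofactors, each list held few genes that passed. Of 20 G-patch proteins, which activate DEAH-box helicases, TFIP11, the partner of DHX15, rose by 0.43 ± 0.098 and RBM10 and CHERP by 0.29 and 0.18 on the log2 scale, with a median of 0.10 over the list. Of 13 MIF4G proteins and other cofactors of DEAD-box helicases, EIF4G1, EIF4G2, CWC22 and NUP214 rose and CTIF fell (log2 fold change -0.46 ± 0.10). NUP214 is the pore protein that docks DDX19 helicases. In the TREX complex, which works with DDX39B, ALYREF rose from 86.2 and 84.7 CPM to 115.7 and 115.8 CPM (log2 fold change 0.44 ± 0.051, edgeR adjusted p = 0.00102), THOC1 rose and THOC2 fell by 0.16. Of 9 SMN complex genes, the partners of DDX20, GEMIN5 rose by 0.26 and GEMIN2 fell by 0.50 on the log2 scale. EDC4 and LSM14A rose among 11 partners of DDX6, and none of the 5 genes of the transfer RNA ligase complex of DDX1 and neither DROSHA nor DGCR8 passed the threshold. These lists were short and were not set against each other by a test.

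Few of the calls on relatives and cofactors held without each library in turn. EIF4A3, HELZ2, EIF4G1 and ALYREF kept an adjusted p under 0.05 in every such fit, and the other 18 of the 22 lost it at least once. IFIH1 (0.07) and NUP214 (0.0859) lost it without untreated replicate 2, and EIF4A1 (0.0836) and SNRNP200 (0.0554) without untreated replicate 1. AQR, ASCC3, CHERP, RBM10, TFIP11, EIF4G2, THOC1, GEMIN5, EDC4 and LSM14A lost it without either untreated library and without hemin replicate 2, with the highest adjusted p from 0.095 for TFIP11 to 0.239 for GEMIN5. CTIF and THOC2 lost it without either untreated library and without hemin replicate 1, with the highest adjusted p at 0.104 and 0.204. CWC22 and GEMIN2 lost it without any one library, with the highest adjusted p at 0.187 and 0.187.

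**Figure D4:**
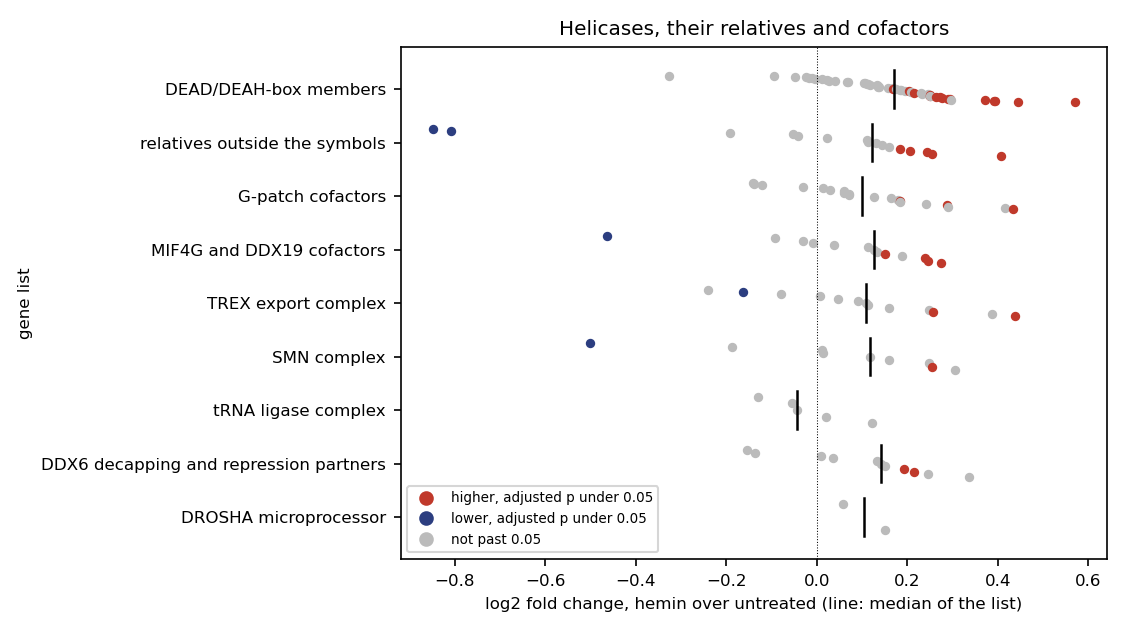
The log2 fold change of hemin over untreated cells (horizontal axis) for every tested gene of the helicase group and of the 8 lists of relatives and cofactors, 1 point per gene, in red or blue where the adjusted p was under 0.05, with a line at the median of each list. The median of the helicases is 0.17 and no helicase is blue, while IFIH1 and HELZ2 lie lowest among the relatives at -0.85 and -0.81.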

How the data were processed

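Poly(A) RNA of K562 cells was measured in 2 untreated and 2 hemin-treated libraries (50 µM, 108 h), grouped by the treatment given in the labels. Per the labels and methods, the authors quantified the trimmed 50-base reads by RSEM against Ensembl 106, and the submitters' processing notes list Trimmomatic 0.39, RSEM 1.3.1, STAR 2.7.5c, SAMtools 1.15 and deepTools 3.5.1. The deposited expected counts are RSEM's estimated reads per gene, not normalized, with shared reads divided between genes, and the posterior means and standard deviations of the count, also deposited, describe that division. The deposited TPM are scaled by effective length to the same total in each library, and RSEM's gene lengths, in bases, are weighted by transcript abundance. FPKM columns were not used.

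The expected counts, rounded, were passed through filterByExpr of edgeR (14458 of 61498 genes kept), scaled by TMM and tested over the whole table with edgeR 4.0.16 (quasi-likelihood, 2-sided, condition as the only term, Benjamini-Hochberg, threshold 0.05) in R 4.3.3. The standard error is the size of the log2 fold change divided by the square root of F. The test was checked on simulated counts of the same size, where it recovered most changed genes but the false share of its calls was above the nominal threshold. The planted changes were larger than that of any helicase and lay in a smaller share of genes than was called here. The check therefore cannot give the recovery or the false share for changes as small as those of the helicases. Alternatives were RLE factors, library size alone, no filter, a minimum of 20 counts in each library of either group, posterior mean counts, a replicate block, DESeq2 1.42.0, limma 3.58.1 on log2(TPM + 1) and log2(TPM + 0.1), and each library left out, a lone library being assumed to vary like the others.

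Members and lists were chosen with earlier results of these data known. Named genes were, by rule, the members that passed, the 5 next by adjusted p, the 5 highest by TPM and their paralogs, and of each cofactor list the genes called and its extremes. The other members are named so that each is accounted for, and 1 gene of the list of relatives is not reported here and was left out of its counts. Coordinates are from GENCODE 44 (GRCh38) and promoters from RefSeq (GRCh38.p14). Counts limit the precision of low genes, and the intervals of the test cover these libraries only.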

Additional observations from a re-analysis of the deposited data

How the results depend on the processing

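No member was called lower under any of the 13 alternatives. The number of members called higher was 15, and between 12 and 21 with RLE factors, library size alone, either other filter, posterior mean counts and DESeq2. It was 0 with limma on log2(TPM + 1) and 0 on log2(TPM + 0.1), and between 8 and 17 when each library was left out in turn. Over all genes, 1012 were higher and 1033 lower. The higher genes numbered 14 and 15 in the limma fits and 597 with DESeq2, and between 469 and 934 with a library left out. The lower genes numbered 33 and 34 in the limma fits and 483 with DESeq2, and between 512 and 884 with a library left out. The cause of these shifts was not tested, beyond the smaller number of libraries in the fits that left one out.

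Among the named genes, signs reversed only for those that had not passed the threshold. On the log2 scale, DHX29 was -0.0199 by limma with a pseudocount of 1 and -0.0205 with 0.1. With a library left out, DDX17 ran from -0.036 to 0.0094 (positive without hemin replicate 1), DDX50 from -0.049 to 0.097 (negative without untreated replicate 1 or hemin replicate 2) and THOC6 from -0.50 to 0.067 (positive without untreated replicate 2). DDX50 was -0.017 with library size alone, and DROSHA was -0.171 and -0.173 in the limma fits. Of the alternatives computed for the named members, 222 kept the direction and the side of the threshold, 51 lost it, 20 newly passed it and 6 turned the sign. The newly passing ones were 5 each for DHX29, DHX34 and DDX10, 4 for DDX23 and 1 for DHX16.

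The deviations of replicate 1 from replicate 2 in the 2 conditions had a correlation of -0.03 over 8993 genes, which are not independent. No effect shared by replicate number was seen, but this check cannot show whether libraries of the same number were handled as pairs. With a replicate block 15 members were called higher, 14 of them shared with the fit without it, with DDX20 lost (adjusted p = 0.0645) and DDX10 gained (adjusted p = 0.0393). Among the cofactors it lost CHERP (0.0549), EIF4G2 (0.0632), CWC22 (0.0723), THOC1 (0.0577), THOC2 (0.0531) and GEMIN2 (0.0709). Depth limits the RNA sensing and germ line helicases, of which 5 did not pass the filter.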

Other observations

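Besides the ETS and E-box letters, 13 other motifs were searched in the promoter windows of the 45 tested members with an entry. The GC box GGGCGG was in 64.4% of members and 76.3% of the 10025 tested genes with an entry, and its longer form GGGGCGGGG in 15.6% and 32.7%. The CCAAT box, CCAAT, was in 48.9% of members and 43.5% of tested genes. The CRE motif TGACGTCA was in 11.1% and 3.96%, and its shorter part TGACGT in 22.2% and 14.5%. The NRF1 motif GCATGCGC was in 11.1% and 6.6%, and a longer NRF1 motif in 4.44% and 2.75%. The YY1 motif AAGATGGC was in 8.89% and 6.74%, TATAAA in 8.89% and 8.27%, and the GATA motif AGATAA in 11.1% and 7.85%. The letters TCTCGCGAG (KAISO), TGACTCAGC (antioxidant response element) and the ZNF143 motif were in no member window, and in 1.75%, 0.728% and 0.688% of tested genes. With 45 members, 1 gene is a large step in these shares, and the longer forms contain the shorter ones.

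RSEM's mean transcript length, a comparison added after the values were seen, was longer in both hemin libraries than in both untreated ones for DHX29, DHX37 and DDX11, an order found in 14.6% of all tested genes. It was shorter in 9 tested members, where 14.9% of all genes showed that order. DDX6, the helicase of decapping, had mean lengths of 5301 and 5477 bases in the untreated and 5058 and 4932 bases in the hemin libraries. DDX11 had 1627 and 1624 bases and then 1733 and 1906 bases.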
